A study of Mus musculus with 12 samples.

Results

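The transcripts described here stayed on bare beads: *Prkg1*, *Tmem47*, *Prlr*, *Igf1*, *Mbnl1*, *Prrg1*, *Prrg3*, *Slc6a14*, *Wnt5a* and *Fgl2*, in all 10 of the 20981 genes measured. They were chosen by a measured value, a large mean in beads-only samples (BO) relative to anti-ORF1p immunoprecipitates (IP), so that this ratio is a description of how they were picked and not a finding. Testes of Mael-/- C57BL/6 mice of 3 months were used throughout. These animals lack Maelstrom, a protein of the piRNA pathway that keeps LINE-1 (L1) retrotransposons silent in male germ cells, and every group carries the same deletion, so no comparison here involves a wild-type animal. RNA-seq was performed on 12 libraries in 4 groups of 3. TOTAL is RNA of the clarified testis extract. INPUT is RNA of fractions 5 to 8 of a 10 to 50% sucrose gradient run with 10 mM EDTA, an agent that dissociates ribosomes. BO is RNA recovered from INPUT by epoxy Dynabeads that went through the coupling reaction with buffer in place of antibody, and IP is RNA recovered from INPUT by the same kind of beads carrying a rabbit monoclonal antibody to ORF1p, the RNA-binding protein encoded by L1. The labels and methods do not say how many animals stand behind the 3 libraries of a group.

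The deposited gene tables give, for each group, the mean over its libraries of the normalized counts, and no value for a single library. The authors' own test columns, made from the libraries, are not used here. The group means alone give no spread between libraries, test or interval for these genes, and a difference of any size between means is reported without a replicate check. BO replicate 3 stood apart from the other libraries in the repeat table, which does give each library: LSU rRNA sequence made up 52.1% of its total, against 3.18% and 3.25% in BO replicates 1 and 2 and 1.93 to 15.9% across the 11 libraries other than BO replicate 3. The BO gene means include that library and cannot be given without it, and its part in the results was not tested. Libraries were made from less RNA in IP than in TOTAL and INPUT, and in BO from the volume used for IP whatever RNA it held, and the part of this in the results was not tested either. *Mael* itself had a group mean of 0.502 in BO, 0.498 in TOTAL and 0 in INPUT and IP.

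Apart from the paralogs *Prrg1* and *Prrg3*, the 10 genes encode proteins of different kinds. *Igf1* and *Wnt5a* encode secreted signalling proteins, insulin-like growth factor 1 acting through a receptor tyrosine kinase and Wnt5a mainly through the noncanonical Wnt route, which governs cell polarity and movement. *Prlr* encodes the prolactin receptor, a cytokine receptor that signals through JAK2 and STAT5 and is known in the testis from Leydig cells, and *Prkg1* encodes the cGMP-dependent protein kinase that relaxes smooth muscle. *Mbnl1* encodes a muscleblind-like splicing regulator. In testis, growth factors and hormone receptors of this kind are known largely from the somatic cells around and within the seminiferous tubules, while ORF1p is made in germ cells. The part of the cell of origin in the BO and IP values was not tested.

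Most of the 10 transcripts have long 3′ untranslated regions (3′ UTRs) and a low GC content, with values and exceptions given further on. The pentamer ATTTA, the core of AU-rich elements that are known to bind RNA-stability factors, was searched for on the sense strand of the longest GENCODE M21 transcript of each gene, overlapping matches included. All 10 transcripts contained it, as did 83.1% of the longest transcripts of 14047 genes whose mean reached 10 in BO or IP. For the 4 genes in which 30 bases of the transcript held a pair of matches, the stretch is printed here, followed by *Prrg3*, the paralog of *Prrg1*, with 1 match. The share of all transcripts that hold such a pair was not counted, so nothing is read from the pairs. All 5 stretches lie in the 3′ UTR, coordinates are those of GRCm38 (mm10), the sequence is that of the transcribed strand, and capitals mark ATTTA.
Prkg1, chr19:30565961-30565990, minus strand: atgtagcATTTAaaacaaATTTAtttttat
Prlr, chr15:10336019-10336048, plus strand: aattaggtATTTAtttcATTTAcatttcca
Mbnl1, chr3:60628290-60628319, plus strand: aaatgATTTAtattttactgATTTAatatt
Prrg1, chrX:78452532-78452561, minus strand: cttcacATTTActggtttgATTTAtctttg
Prrg3, chrX:71968089-71968118, plus strand: gacagaaataacgATTTActaggaacaaaa

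All means below are on the scale of the table that holds BO and IP. INPUT and TOTAL come from 2 other tables and were brought to that scale with the IP libraries that the 3 tables share, by factors of 0.763 and 0.766. Ratios are of these means, and log2 differences are of the mean plus 1. The number of reads behind a mean can only be bounded, because in the low values of each group a single read is worth 1 of 3 steps, one for each library.

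The secreted factors were *Igf1*, *Wnt5a* and *Fgl2*. *Igf1* (chr10:87858265-87937042, plus strand) had means of 1705 in TOTAL, 2195 in INPUT, 8184 in BO and 308 in IP. BO was thus 26.6 times IP and 3.73 times INPUT, and IP was 0.140 of INPUT, the lowest such share of the 10. *Wnt5a* (chr14:28504750-28527448, plus strand) had means of 393 in TOTAL, 345 in INPUT, 1963 in BO and 129 in IP. Its BO mean was 15.2 times its IP mean and 5.69 times its INPUT mean.

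*Fgl2* (chr5:21372642-21378374, plus strand), which encodes a fibrinogen-like protein known as a prothrombinase and as a secreted regulator of immune cells, had means of 3545 in TOTAL, 2791 in INPUT, 9896 in BO and 757 in IP. The BO mean was 13.1 times the IP mean, the smallest ratio of the 10, and 3.55 times the INPUT mean. *Fgl2* ranked 28 by BO over IP among 8436 genes with a BO mean of at least 100. Its neighbours in that order, neither of them among the 10, were *Hook3* at 13.3 and *Vgll3* at 12.9, and 18 genes outside the 10 had a larger ratio than *Fgl2*. The 10 are therefore a choice from the top of the order and not the whole of it.

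The next 5 genes encode membrane proteins. *Prlr* (chr15:10177238-10349180, plus strand) had the largest means of the 10, not corrected for length, with 8177 in TOTAL, 10565 in INPUT, 69627 in BO and 2532 in IP. BO was 27.5 times IP and 6.59 times INPUT. Over all genes, again without correction for length, *Prlr* ranked 107 by mean in TOTAL, 87 in INPUT, 5 in BO and 1840 in IP. *Prlr* alone made up 0.474% of the summed gene means in BO, against 0.0652% in TOTAL.

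*Slc6a14* (chrX:21714896-21742355, plus strand), the gene of a transporter of neutral and cationic amino acids, had means of 765 in TOTAL, 601 in INPUT, 4633 in BO and 288 in IP, with BO at 16.1 times IP. *Tmem47* (chrX:81070698-81097872, plus strand), the gene of a membrane protein of cell junctions related to PMP22 and the claudins, had 991 in TOTAL, 541 in INPUT, 4339 in BO and 148 in IP, with BO at 29.2 times IP. *Tmem47* was the only one of the 10 with an INPUT mean well below TOTAL, at 0.545 of it.

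*Prrg1* and *Prrg3* encode small transmembrane proteins with a γ-carboxyglutamate (Gla) domain, the kind of domain found in vitamin K-dependent clotting factors. *Prrg1* (chrX:78449613-78583896, minus strand) had means of 382 in TOTAL, 275 in INPUT, 2235 in BO and 125 in IP. *Prrg3* (chrX:71962624-71972722, plus strand) had 749 in TOTAL, 577 in INPUT, 4359 in BO and 246 in IP. The paralogs had nearly the same proportions between groups: BO was 17.9 times IP for *Prrg1* and 17.7 times for *Prrg3*, and 8.12 and 7.55 times INPUT.

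Of the intracellular proteins, *Prkg1* (chr19:30564489-31765033, minus strand) stood first of all genes with a BO mean of at least 100. Its means were 933 in TOTAL, 836 in INPUT, 19079 in BO and 330 in IP. BO was 57.7 times IP, 22.8 times INPUT and 20.4 times TOTAL, while INPUT was 0.895 of TOTAL. By mean over all genes *Prkg1* ranked 3835 in TOTAL and 63 in BO. *Mbnl1* (chr3:60472830-60629750, plus strand) had means of 7079 in TOTAL, 7444 in INPUT, 42289 in BO and 2352 in IP, with BO at 18.0 times IP and 5.68 times INPUT. It ranked 14 by mean in BO.

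**Figure D1:**
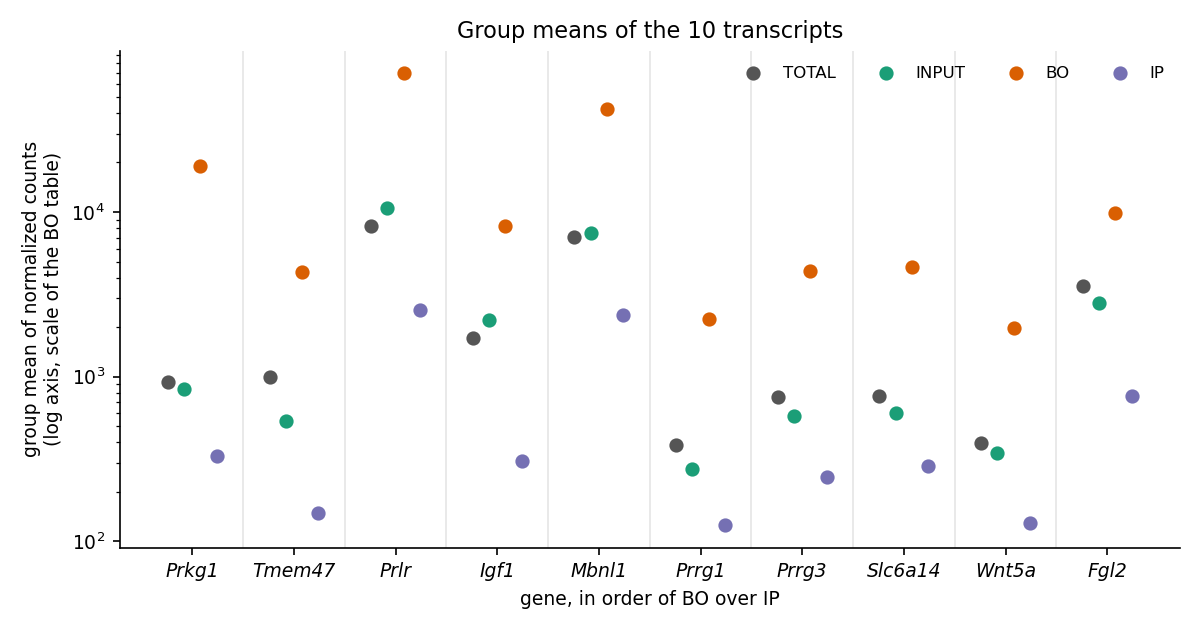
Group means of normalized counts (log axis, scale of the BO table) for the 10 transcripts, in order of BO over IP. Each point is one deposited group mean over 3 libraries, without an error because no library values are given; in all 10 genes BO is the highest point and IP the lowest.

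The number of reads behind these ratios could be bounded, and the part of depth in them was not tested. The lowest IP mean, that of *Prrg1*, stood for between 387 and 501 reads in the 3 libraries together, and its BO mean for between 4452 and 9349. The IP mean of *Prkg1* stood for between 1024 and 1327 reads, and its BO mean for between 38006 and 79827. These bounds concern counting only, and they do not stand in for the spread between libraries.

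To relate the 10 to all other genes, each comparison was set beside the share past 2-fold among all genes whose mean reached 10 in either group. In BO against IP, 11.4% of 14135 genes were at least 2-fold higher in BO and 44.3% at least 2-fold lower, and all 10 were higher, as their choice required. Their log2 differences ran from 3.71 to 5.85 with a median of 4.16, where the median gene stood at -0.82. On a scale centred on the median gene the median of the 10 was 4.98.

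In BO against INPUT, the material the beads were placed in, 9.47% of 14175 genes were at least 2-fold higher in BO and so were all 10, with log2 differences from 1.83 in *Fgl2* to 4.51 in *Prkg1*. The median of the 10 was 2.82 and that of all genes -0.58. In BO against TOTAL, 11.7% of 14541 genes and all 10 were at least 2-fold higher in BO, with differences from 1.48 in *Fgl2* to 4.35 in *Prkg1* and a median of 2.54 beside -0.76 for all genes. Both comparisons share the BO libraries with the choice of the genes, so a high count had to be expected and nothing is read from it.

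In IP against INPUT, 14.9% of 14414 genes were at least 2-fold lower in IP, and all 10 were. Their differences ran from -2.83 in *Igf1* to -1.06 in *Slc6a14*, with a median of -1.54 against 0.16 over all genes. In IP against TOTAL, 26.7% of 14763 genes and all 10 were at least 2-fold lower in IP, from -2.73 in *Tmem47* to -1.41 in *Slc6a14*, with a median of -1.60 against -0.04. The IP libraries are shared with the choice as well. These values show which side of INPUT the ratio came from. In *Prkg1* the BO side was much the larger, with BO 4.51 above INPUT and an IP over INPUT difference of -1.34. In *Igf1* the IP side was the larger, with 1.90 and -2.83, and in *Fgl2* the sides were alike as deposited, with 1.83 and -1.88. The balance in *Fgl2* depended on the scale between tables, with 2.40 and -2.04 when centred on the median gene and 1.58 and -2.41 when scaled to the sum over genes.

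**Figure D2:**
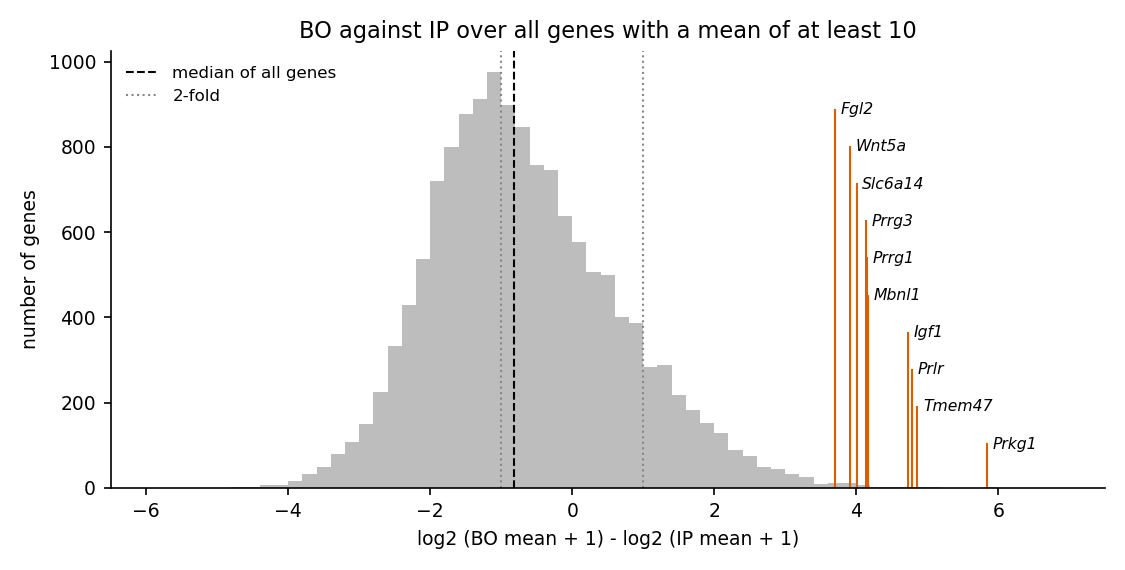
Number of genes (vertical axis) by log2 BO over IP, on means plus 1, for the 14135 genes with a mean of at least 10 in BO or IP; orange lines of arbitrary height mark the 10 transcripts, the dashed line the median gene at -0.82 and dotted lines 2-fold. The 10 lie between 3.71 and 5.85, in the far right tail from which they were picked.

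INPUT against TOTAL is the one comparison that the choice of genes did not use. Here 2.32% of 14547 genes were at least 2-fold higher in INPUT and 18.6% at least 2-fold lower, and 0 of the 10 were past 2-fold in either direction. Their log2 differences ran from -0.87 in *Tmem47* to 0.37 in *Prlr*, with a median of -0.27 beside -0.17 over all genes, whose quartiles were -0.78 and 0.33. *Prlr*, *Igf1* and *Mbnl1* were above 0 and the other 7 below it, although the sign of *Prkg1*, at -0.16 as deposited, turned on a scale centred on the median gene, at 0.01, and the signs of *Prkg1* (0.10) and *Wnt5a* (0.07) turned with upper quartile scaling. Only *Tmem47* lay outside the quartiles on the low side, and *Prlr* and *Igf1* (0.36) lay just above the upper one. Apart from *Tmem47*, the levels in INPUT were within 1.39-fold of those in TOTAL.

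**Figure D3:**
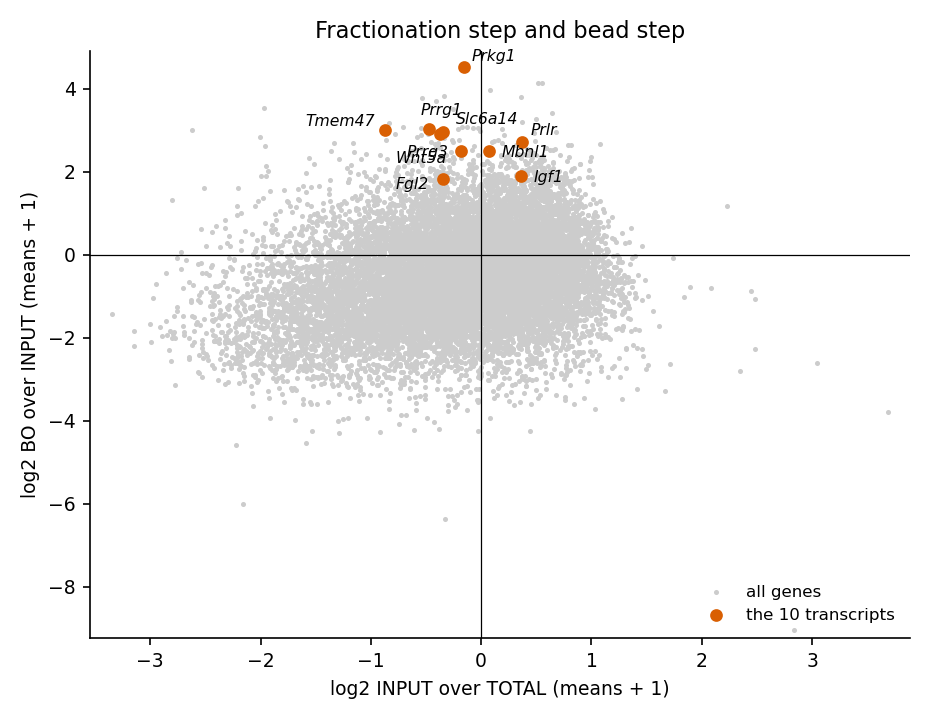
Log2 INPUT over TOTAL (horizontal axis, the gradient step) against log2 BO over INPUT (vertical axis, the bead step), on means plus 1, for all genes with a mean of at least 10 in BO or INPUT (grey) and the 10 transcripts (orange). The 10 spread from -0.87 to 0.37 horizontally, within the body of all genes, and from 1.83 to 4.51 vertically, at its upper edge.

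The order of BO highest and IP lowest of the 4 means was found in 909 of the 14135 genes (6.43%), the 10 included. Among 1166 genes with a BO mean of at least 100 that were at least 2-fold higher in BO than in IP, 683 were also at least 2-fold above INPUT in BO, 411 were at least 2-fold below INPUT in IP, and 122 were both. All 10 belong to the 122. Together the 10 made up 0.197% of the summed gene means in TOTAL, 0.211% in INPUT, 1.13% in BO and 0.0402% in IP.

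Levels can be compared between the 10 only per length of transcript. In TOTAL the mean per kb of the longest transcript was 1252 for *Mbnl1*, 936 for *Fgl2*, 826 for *Prlr*, 247 for *Tmem47*, 242 for *Igf1*, 223 for *Slc6a14*, 134 for *Prkg1*, 126 for *Prrg3*, 96.3 for *Prrg1* and 56.1 for *Wnt5a*. The order in BO was another one, with *Mbnl1* at 7478 and *Prlr* at 7033 followed by *Prkg1* at 2735, *Fgl2* at 2612, *Slc6a14* at 1349, *Igf1* at 1161, *Tmem47* at 1083, *Prrg3* at 735, *Prrg1* at 564 and *Wnt5a* at 280. *Prkg1* moved from the seventh place to the third. Whether neighbours in these orders differ beyond the spread of libraries cannot be said from the group means, and in whole testis a low level from few cells and one from little RNA per cell cannot be told apart.

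Transcript structure and composition were not used to choose the genes. The longest transcripts of the 10 ran from 3434 nt in *Slc6a14* to 9900 nt in *Prlr*, with a median of 5793 nt beside 3450 nt for all 14047 genes, and 9 of the 10 were longer than the median gene. The 3′ UTR was the longest portion of the transcript in all but *Slc6a14*, whose coding sequence was longer. It measured 7745 nt in *Prlr*, 6311 nt in *Igf1*, 5141 nt in *Prrg3*, 4752 nt in *Prkg1* and 4511 nt in *Wnt5a*, and was shortest in *Slc6a14* at 1268 nt. All 10 were above the median 3′ UTR of 1231 nt over 13625 coding genes and 9 above the upper quartile of 2395 nt. Coding sequence lay on both sides of the median gene: the median of the 10 was 1142 nt, against 1389 nt for all genes. *Prkg1* (2013 nt), *Slc6a14* (1914 nt) and *Prlr* (1824 nt) were above the latter, and *Igf1* (459 nt), *Tmem47* (543 nt), *Prrg1* (654 nt) and *Prrg3* (693 nt) fell below the lower quartile of 843 nt. When the median transcript of each gene replaced the longest, 6 of the 10 were above the median gene.

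GC content was low. It was 33.4% in *Prrg1*, 37.4% in *Tmem47*, 38.0% in *Igf1*, 38.7% in *Slc6a14*, 39.4% in *Prlr*, 39.7% in *Mbnl1*, 40.6% in *Fgl2* and 41.5% in *Prkg1*, all 8 below the lower quartile of 44.7% over all genes. *Wnt5a* (46.7%) and *Prrg3* (47.3%) were between that quartile and the median of 49.5%. U was abundant in turn, at 28.4 to 35.4% of bases, above the upper quartile of 27.7% in all 10. Matches to ATTTA numbered 19 in *Igf1*, 17 in *Prkg1*, 16 in *Prlr* and 15 in *Prrg1*, and 5 each in *Prrg3* and *Slc6a14*, beside a median of 3 over all genes. Since longer sequences can hold more matches, the count was also taken per kb: the median of the 10 was 1.78 and that of all genes 0.88. Above the latter were 9 of the 10, with *Prrg3*, at 0.84, below it. The nonamer TTATTTATT, searched for in the same way and containing ATTTA, was found in *Prkg1* and *Wnt5a*, and in 10.3% of all the transcripts.

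**Figure D4:**
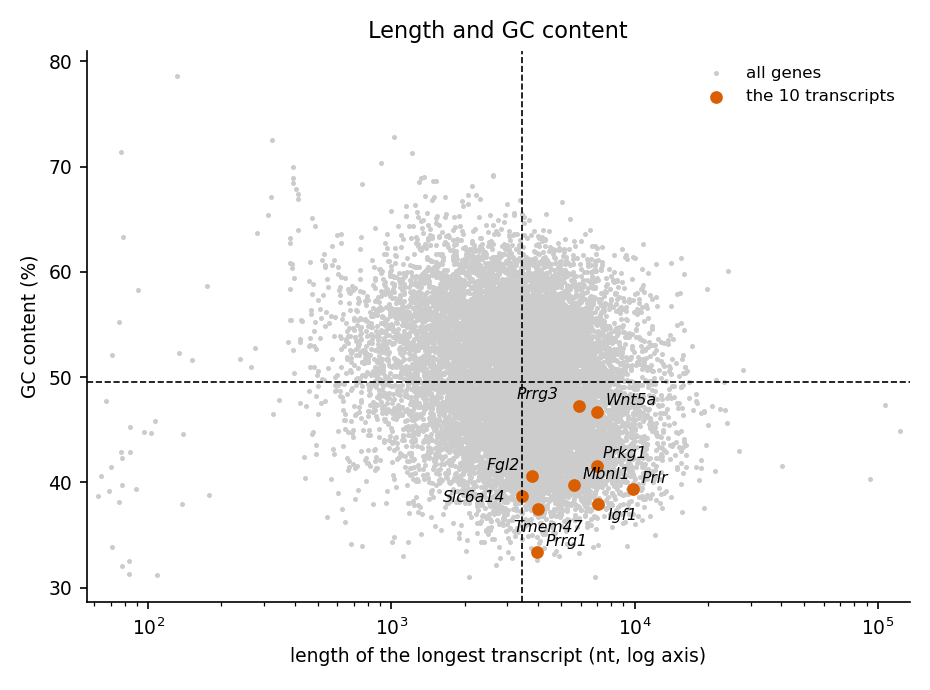
Length of the longest GENCODE M21 transcript (horizontal, log axis, nt) against its GC content (vertical, %) for 14047 genes (grey) and the 10 transcripts (orange), with dashed lines at the medians of 3450 nt and 49.5%. All 10 lie below the GC median and 9 lie to the right of the length median, with *Slc6a14* just left of it.

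Length and composition also moved with the bead ratios over all genes. Across genes, which share libraries and are not replicates, the Spearman correlation of log2 BO over INPUT was 0.44 with transcript length and -0.47 with GC content, and that of log2 BO over IP was 0.36 and -0.17 (14047 genes). Of 3009 other genes within the length and GC ranges of the 10, 23.2% were at least 2-fold higher in BO than in IP, with a median of -0.17, where all genes with a length gave 11.4% and -0.82. In BO over INPUT, 22.2% of the 3009 and 9.55% of all genes with a length were at least 2-fold higher in BO. The part of length and GC content in the bead values of the 10 was not tested.

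On the X chromosome are 4 of the 10, *Tmem47*, *Prrg1*, *Prrg3* and *Slc6a14*. This chromosome carries 4.28% of the 14047 genes. Of 601 X-linked genes 21.8% were at least 2-fold higher in BO than in IP, with a median of -0.40. Chromosome 18, which holds none of the 10, was close to that, with 21.1% of 375 genes and a median of -0.43. Among the 100 genes with the largest ratio at a BO mean of at least 100, 13 were X-linked, the 4 included, where 4.03% of all 8436 such genes were.

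Reads of neighbouring genes were considered next. The nested gene *Cstf2t*, a gene of mRNA 3′ end processing that lies within *Prkg1* on the opposite strand and shares no exon base with it, had a BO mean of 952 against 1833 in IP. *Ccdc146*, which overlaps *Fgl2* on the opposite strand without shared exon bases, had 17.7 in BO and 90.7 in IP. Neither followed the gene it overlaps. Exon bases were shared by *Tmem47* with the antisense lincRNA *Gm26775* (463 bases), by *Wnt5a* with the antisense *Gm2670* (358 bases) and by *Prlr* with *Gm21973* on the same strand (203 bases). None of these 3 is among the genes measured. The libraries were made with a stranded kit, but whether reads were counted by strand is not stated. The values of *Tmem47*, *Wnt5a* and *Prlr* could therefore hold reads of both genes. Counting by strand would separate the antisense pairs of *Tmem47* and *Wnt5a*, but not *Prlr* from *Gm21973*.

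Paralogs differed among themselves. The median gene stood at -0.82 in log2 BO over IP, and the values that follow are given relative to it, so that 0 is the ratio of the median gene. A ratio can be high through a high BO or a low IP mean. *Mbnl2*, with means of 3345 in TOTAL, 2419 in INPUT, 9779 in BO and 1051 in IP, stood at 4.04, near *Mbnl1* at 4.99, whereas *Mbnl3* (BO 495, IP 806) stood at 0.12. *Prrg4* stood at 2.81 and *Prrg2* at -0.38. *Prkg2*, the other cGMP-dependent kinase gene, was low throughout (15.4 in TOTAL, 16.9 in BO and 20.5 in IP) and stood at 0.56. *Igf2* stood at 0.31, *Wnt5b* at 1.38 and *Slc6a6* at 2.11, while their log2 BO over INPUT differences were -2.54, -0.80 and -0.22 beside -0.58 for the median gene. *Fgl1* was too low to be compared, with a BO mean of 4.05 and an IP mean of 2.07.

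The pathways of the 10 were covered by 9 lists of relatives and partners, counted here without the 10. At least 2-fold higher in BO than in IP, as deposited, were 5 of 11 genes of cGMP-dependent kinase signalling, 6 of 14 of the IGF axis, 3 of 10 of prolactin and growth hormone receptor signalling, 5 of 14 of noncanonical Wnt signalling, 2 of 7 MBNL and CELF factors, 2 of 7 PRRG and γ-carboxylation genes, 1 of 6 SLC6 transporters, 1 of 7 fibrinogen-related genes and 4 of 9 PMP22- and claudin-like genes. The background share is the 11.4% of all genes given above. Counted as higher were also *Bmp2k* (1.79) in the cGMP list and *Lhcgr* (2.74) in the prolactin list, which are not members of those pathways. At least 2-fold lower in BO were 1, 2, 3, 3, 2, 1, 2, 2 and 2 genes in the same order, beside 44.3% of all genes. Centred on the median gene, the higher counts became 5, 7, 3, 8, 2, 4, 2, 4 and 4 and the lower counts 1, 0, 0, 1, 0, 0, 0, 0 and 0, so that the lower calls depended on the scale. On that centred scale the share of all genes at least 2-fold higher in BO was 24.6% and that at least 2-fold lower 18.4%. In BO against INPUT the list medians, in the same order, were 0.27, -0.12, -0.51, -0.59, 0.63, -1.71, -0.89, -1.27 and -0.70. The median gene stood at -0.58 there, so the lists lay on both sides of it.

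In the IGF axis the highest was *Igfbp5* at 2.57, an IGF-binding protein gene, followed by *Igfbp3* at 2.40, *Irs1*, the adaptor of the receptor, at 2.27 and *Pappa*, a protease that cleaves IGF-binding proteins, at 2.13. The lowest was *Igfbp2* at -1.70, and the receptor *Igf1r* was at 0.76. These are log2 differences as deposited. In noncanonical Wnt signalling the receptor *Fzd5* was highest at 1.60 and the scaffold *Dvl2* lowest at -1.94.

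In the list around *Prlr*, *Lhcgr* was highest at 2.74. It encodes the luteinizing hormone receptor, which is not part of the JAK2 and STAT5 route. The feedback inhibitor *Cish* was lowest at -1.28, with the kinase *Jak2* at 1.39 and *Stat5a* at -0.59. Around *Prkg1*, the soluble guanylate cyclase subunit *Gucy1a3* was highest at 2.38, the cGMP phosphodiesterase *Pde5a* was at 2.01, and *Vasp*, a kinase substrate at actin filaments, was lowest at -0.80 of those with a BO mean of at least 10. Just below that mean, the channel gene *Trpc7* (BO 9.97, IP 90.3) was at -3.06, the gene of this list counted as 2-fold lower. None of these genes reached the 3.71 of *Fgl2*. One list gene did, *Angpt1*, a ligand of endothelial Tie2 receptors, at 3.94, with means of only 52.5 in BO and 2.50 in IP.

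In the remaining families the highest and lowest among genes with a BO mean of at least 10 were *Mbnl2* (3.22) and *Celf6* (-1.80), *Pros1* (2.16) and *Prrg2* (-1.20), *Slc6a6* (1.29) and *Slc6a9* (-1.25), *Angpt1* (3.94) and *Fibcd1* (-1.26), and *Pmp22* (2.80) and *Emp3* (-0.53). Below that mean, *Perp* (-1.57) and *Cldn3* (-1.33) of the last family were lower still. A family name therefore did not go with one value of BO over IP.

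Whether the 10 go with a somatic cell type was looked at with markers, since the 10 have been called somatic transcripts. The 6 lists of somatic markers held 60 genes with a mean of at least 10 in BO or IP, none of them among the 10. Of these, 11 were at least 2-fold higher in BO than in IP (18.3%, beside 11.4% of all genes), 15 at least 2-fold lower (beside 44.3% of all genes) and 34 between. Centred on the median gene the counts were 21 and 0, on a scale on which 24.6% of all genes were at least 2-fold higher and 18.4% at least 2-fold lower in BO. The median was -0.40 as deposited, beside -0.82 for the median gene. In BO against INPUT the list medians were -1.95 (peritubular myoid), -1.83 (Leydig), -0.93 (Sertoli), -2.89 (macrophage), -1.95 (endothelial) and -1.02 (stromal). All of these were below the median gene, which stood at -0.58 in that comparison.

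By list, as deposited, 0 of 8 peritubular myoid markers were 2-fold higher in BO, 2 of 10 Leydig, 5 of 12 Sertoli, 0 of 11 macrophage, 0 of 9 endothelial and 4 of 10 stromal. All genes gave 11.4%. In the same order 2, 2, 1, 5, 2 and 3 markers were 2-fold lower, beside 44.3% of all genes. Centred on the median gene, the higher counts were 1, 3, 7, 2, 2 and 6, beside 24.6% of all genes. The lower counts were then all 0, beside 18.4%. The counts of 0 higher thus depended on the scale. Of the contractile genes that define peritubular myoid cells, *Des* was lowest at -1.32 in log2 BO over IP and *Mylk* highest at 0.87. *Acta2* had 309 in BO against 1021 in INPUT, *Tagln* 16.9 against 97.8, *Myh11* 1172 against 1887 and *Mylk* 1640 against 1759. *Cyp17a1*, an enzyme of androgen synthesis in Leydig cells, had 1326 in BO against 14541 in INPUT. *Lhcgr* of the same cells had 858 in BO against 610 in INPUT, and was at 2.74 in log2 BO over IP. Among Sertoli markers the KIT ligand gene *Kitl* (3.09) and *Gja1*, a connexin gene (2.63), were highest and *Trf*, the transferrin gene (-1.60), lowest. *Kitl* had 16071 in BO against 6337 in INPUT, *Gja1* 5423 against 3739 and *Trf* 168 against 1618.

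Stromal markers ranged from *Nr2f2*, a nuclear receptor gene of interstitial cells (3.02), to the collagen gene *Col3a1* (-1.68). *Nr2f2* had 1285 in BO against 346 in INPUT, and *Col3a1* 328 against 2084. Of the germ cell lists, as deposited, 4 of 10 spermatogonial markers were 2-fold higher in BO and 2, *Stra8* (-2.07) and *Uchl1* (-1.52), 2-fold lower. Centred on the median gene, these counts were 6 and 1, and *Uchl1*, at -0.70, was no longer past 2-fold. Among spermatocyte markers 10 of 11 were 2-fold lower, beside the 44.3% of all genes, the lowest being *Sycp3* of the synaptonemal complex at -3.94. Only 2 of 11 spermatid markers reached a mean of 10, both lower in BO than in IP. *Sycp3* had 2512 in INPUT, 1366 in BO and 20991 in IP. In BO against INPUT the median was -0.66 for spermatocyte and 0.38 for spermatogonial markers, beside -0.58 for the median gene. The cells from which the 10 came were not measured. The word somatic rests here on what is known of growth factors and hormone receptors, such as those of *Igf1*, *Wnt5a* and *Prlr*. For the other genes no testis cell type is given here, and whether the word holds for them was not tested.

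**Figure D5:**
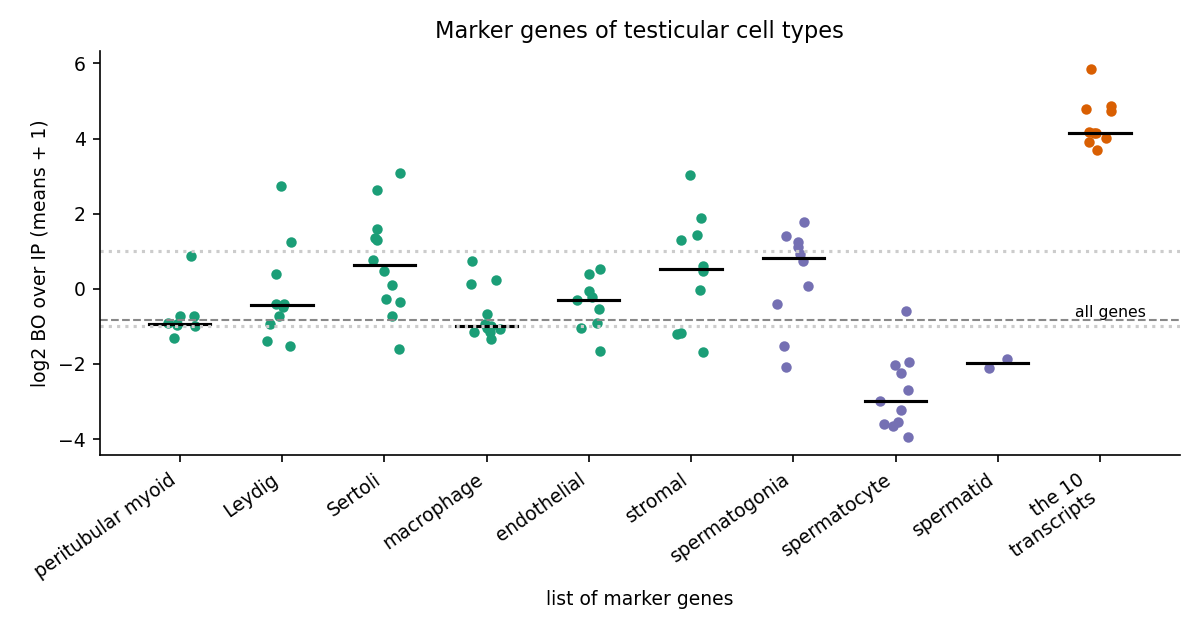
Log2 BO over IP, on means plus 1 (vertical axis), of marker genes with a mean of at least 10 in BO or IP for 6 somatic (green) and 3 germ cell lists (purple) and for the 10 transcripts (orange); each point is a gene, black bars are medians, the dashed line is the median of all genes and dotted lines are 2-fold. No marker reaches the lowest of the 10, which is 3.71, and spermatocyte markers lie lowest.

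Other genes were named by rule. The 5 genes outside the 10 with the largest BO over IP ratio at a BO mean of at least 100 were *Pi15* (36.1 times), *Cd300c* (22.8), *Cav2* (20.5), *Tnfaip6* (19.4) and *Pabpc4l* (18.7). Their BO means ran from 302 to 733 and their IP means from 13.2 to 37.8. *Cd300c*, an immune receptor gene, had a transcript of only 700 nt and 51.1% GC, and *Cav2*, a caveolin gene, had an INPUT over TOTAL difference of -1.51, both outside the ranges of the 10. The transcripts of *Cav2* (2733 nt) and *Tnfaip6* (1710 nt) were also shorter than those of the 10. *Pi15* (6923 nt and -0.54) and *Pabpc4l* (5252 nt and -0.18) were within those ranges.

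The 5 genes outside the 10 whose centred profile over the 4 groups was closest to the median profile of the 10 were *Tnfaip6*, *Pabpc4l*, *Tnfrsf11a*, *Esrrg* and *2900056M20Rik*, at Euclidean distances of 0.05, 0.40, 0.43, 0.47 and 0.49 on the log2 scale over 4 group means. *Tnfaip6*, which encodes a hyaluronan-binding protein, had 128 in TOTAL, 107 in INPUT, 733 in BO and 37.8 in IP. The 10 themselves lay at distances from 0.19 (*Prrg3*) to 1.48 (*Prkg1*), so that several other genes were closer to the centre of the 10 than some of the 10 were.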

How the data were processed

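RNA-seq tables of 12 libraries (TOTAL, INPUT, BO and IP, 3 each) from Mael-/- testes were used, with groups taken from the labels. Per the labels, the authors used STAR v2.6.0c for alignment to mm10 and DESeq2 v1.24.0 to compare IP with TOTAL, INPUT and BO in turn; the program and annotation used to count reads on genes are not given in the sources used here. The deposited signal used is the authors' mean of normalized counts per group, for 20981 genes in each of 3 tables of 802920 rows, rounded to 3 decimals. The columns with the authors' own comparisons (fold changes, errors, p-values) and the mean over both groups were not used. The 4 rows that name no gene (no feature, ambiguous, multimapping, unmapped) held 21.6 to 37.1% of a column's sum and were left out. Library depth is not given by these tables; in the low values a single read is worth 0.239 to 0.502 in BO and 0.249 to 0.323 in IP. The repeat table, whose deposited signal the authors normalized by upper quartile per library after STAR and Telescope, served only to see whether libraries stood apart.

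The members and lists were chosen with earlier results of these data known. INPUT and TOTAL were joined to the BO table by the median ratio of IP means over 13767 genes with an IP mean of at least 10 (0.763, gene range 0.758 to 0.769, and 0.766, 0.754 to 0.774). Differences are of log2(mean + 1), among genes with a mean of at least 10 in either group, and called means past 2-fold. No test was made, because the group means used give a single value per gene and the authors' tests were left out. Named besides the members were the 5 other genes with the largest BO over IP ratio and the 5 closest in profile (BO mean of at least 100), paralogs, and the highest and lowest gene of each list among those with a BO mean of at least 10. Marker and family genes named beyond these, and *Cstf2t*, *Ccdc146*, *Zfp871*, *Lnpep* and *Lrrc58*, were chosen after their values were seen. Sequences, lengths and coordinates are those of GENCODE M21 (GRCm38), with 14047 of 14135 genes matched by symbol, 554 of them through older symbols. Alternatives were pseudocounts of 0.1 and 10, centring on the median gene, upper quartile and sum scaling, a 4-fold threshold, other filters, joining each gene by its own IP mean, and the median transcript. The join and the calls were tested on simulated data. Python 3.11.15, numpy 2.4.6, pandas 2.3.3 and matplotlib 3.10.9 were used.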

Additional observations from a re-analysis of the deposited data

How the results depend on the processing

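The counts of the 10 genes past 2-fold were the same as reported with pseudocounts of 0.1 and 10, with centring on the median gene, with upper quartile scaling, with scaling to the sum over genes and, where tables were joined, with each gene joined by its own IP mean. The shares of all genes beside them were not: with centring, those at least 2-fold higher in BO went from 11.4 to 24.6% against IP, from 9.47 to 20.2% against INPUT and from 11.7 to 25.9% against TOTAL, and with scaling to the sum over genes those at least 2-fold lower in IP went from 14.9 to 28.4% against INPUT and from 26.7 to 38.4% against TOTAL. At a threshold of 4-fold the 10 genes lower in IP than in INPUT became 2 (*Prlr* and *Igf1*) and the 10 lower in IP than in TOTAL became 3 (*Tmem47*, *Igf1* and *Fgl2*), while 10 remained in BO over IP, 8 in BO over INPUT and 9 in BO over TOTAL; these are cases of a stricter threshold on the same values. The shares of all genes past 4-fold in the same direction were 2.73% in IP against INPUT, 10.8% in IP against TOTAL, 3.47% in BO against IP, 1.53% in BO against INPUT and 2.6% in BO against TOTAL. Of 390 values of single genes under these alternatives, 372 kept their side of the threshold, 18 did not, all at 4-fold, and 0 past the threshold changed sign. The 9 transcripts longer than the median gene became 6 when the comparison was with genes with a BO mean of at least 100, and also 6 with the median transcript. No paired analysis was possible because the gene tables hold a single mean per group, and for the same reason no replicate could be left out. The part of depth in the ratios of the 10 was not tested. From the group means used here no difference can be set against the spread between libraries, and BO replicate 3, with its high rRNA share, could not be removed.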

Other observations

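Not every transcript with a large BO over IP ratio had the profile of the 10. Among the 100 genes with the largest ratio at a BO mean of at least 100, 68 had an IP mean at least 2-fold below INPUT, as all 10 did, and 5 had an IP mean at or above INPUT. *Zfp871*, a zinc finger gene, had means of 1487 in TOTAL, 1916 in INPUT, 26816 in BO and 1944 in IP, so that IP was 1.01 of INPUT while BO was 14.0 times INPUT. *Lnpep*, the gene of a membrane aminopeptidase, had 3451 in TOTAL, 5376 in INPUT, 57087 in BO and 5532 in IP, with IP at 1.03 of INPUT. *Lrrc58* reached 97561 in BO against 12643 in INPUT and 7961 in IP. These genes were picked after their values were seen. Their longest transcripts measured 10851, 12052 and 8604 nt with 40.0, 40.3 and 43.0% GC, longer and of lower GC content than the median gene (3450 nt and 49.5%).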
